A study of Rattus norvegicus with 4 samples.

Results

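The serpins are a family of protease inhibitors, and 32 of the 14506 genes measured in rat liver belonged to the set described here. They are all genes whose probe set carries a single platform symbol starting with Serpin, leaving out Serpina7, Serpinc1, Serpind1 and Serping1. Each of the 32 had 1 probe set, and the current gene table held all of their identifiers under the same symbols. RNA came from the livers of male, untreated WNIN/Ob rats aged 4 months, a strain with a lean and an obese phenotype. RNA of 4 obese animals was combined into an obese pool and RNA of 4 lean animals into a lean pool, and each pool was hybridised to 2 arrays, an original and a technical replicate. All animals had stock diet and water freely available. The arrays are repeats of 1 pool per phenotype, so every difference below compares these pools, has no replicate check across animals and carries no p-value.

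A classical serpin presents an exposed loop that a protease cuts as if it were a substrate, after which the serpin changes shape and traps the protease. The liver secretes many of the family into plasma, where they restrain enzymes of clotting, fibrinolysis, kinin release and inflammation. Some members do not inhibit proteases at all and serve as hormone carriers or as chaperones. The family is divided into clades named by letter. Clade A holds secreted plasma proteins, clade B proteins that mostly stay inside cells, and the smaller clades secreted or endoplasmic reticulum proteins.

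Values are log2 intensities computed from the deposited RMA values (robust multi-array average, which corrects background, normalises between arrays and combines the probes of a probe set). Intensities of different probe sets do not rank transcripts by amount. A member was counted as 1.5-fold apart when the pool means differed by that factor, no obese array came closer than 0.25 to a lean array, and the higher pool reached the median level of all genes, 5.48. Of the 32 members 14 reached that level and 18 did not, and a gene below it is not known to lie above background. Folds are given with their range over the 4 pairs of an obese and a lean array, which covers measurement error only. Array values are given in the order original, technical replicate.

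Of the liver's serpins 1 member, Serpina3c, was 1.5-fold lower in the obese pool. That is 3.12% of the members, beside 2.43% of all genes, so the share lay near the background. No member was 1.5-fold higher, beside 2.19% of all genes, and 0 members were 2-fold apart in either direction, beside 2.05% of all genes. The median difference of the 32 members, obese minus lean, was -0.012, and that of all genes was 0.033. The members' differences ran from -0.70 to 0.55, with 16 above 0 and 16 below. The size of the difference was 0.2 or less for 20 members, 62.5% of them, and for 64.0% of all genes, and 14 of these 20 lay below the median level. Of the 14 members that reached it, 6 or 42.9% had a difference of that size, beside 56.2% of the genes that did, which is given as a description because reaching it depends on the higher pool. Over all genes the rule counted 317 as higher and 352 as lower in the obese pool, and with cyclic loess between arrays it counted 227 and 400.

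**Figure D1:**
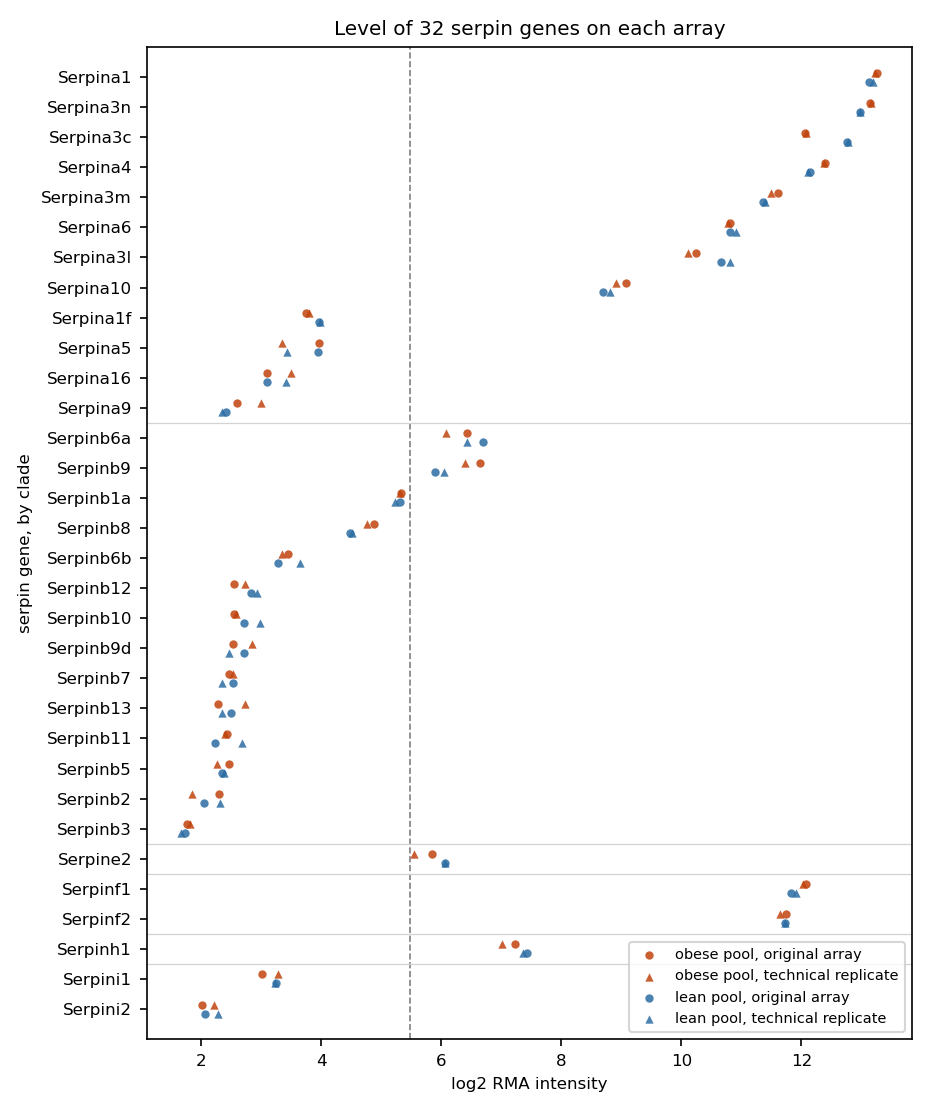
Log2 RMA intensity (x axis) of the 32 serpin genes (rows, by clade) on the 2 obese and the 2 lean arrays. The dashed line is the median level of all genes, 5.48. Of the 32 genes 14 reach it in at least one pool, and Serpina3c shows the widest gap between the pools among them.

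The arrays of the pools lay fully apart for 11 members that were higher in the obese pool, or 34.4%, beside 27.5% of all genes. They lay fully apart for 8 members that were lower, or 25.0%, beside 18.5% of all genes. For the other 13 members the arrays of the pools overlapped. Over the 32 members the standard deviation of the difference between original and technical replicate was 0.24 in the obese pool and 0.19 in the lean pool. That of the difference between pools was 0.26. Over all genes the same values were 0.27, 0.20 and 0.47. The differences of all genes ran from -7.07 to 4.24, and such far values widen their standard deviation. The 0.26 and 0.47 therefore do not show that a typical member varied less than a typical gene. A difference of 0.2 or less was about as common, at 62.5% of members and 64.0% of all genes. Among those that reached 5.48 the shares were 42.9% and 56.2%. A repeat difference is between individual arrays and a pool difference between means of arrays. Array noise therefore enters the pool difference less, and the spreads are not directly comparable. The dim members widen the spread between repeats. Over the 14 members that reached 5.48 it was 0.12 in the obese pool and 0.11 in the lean pool, and the spread of the difference between pools was 0.35. These spreads were not computed for all genes at that level.

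The clade A serpins of the Serpina3 group went both ways between the pools. These genes are the rodent counterparts of human alpha-1-antichymotrypsin, a single gene in human that has many copies in rodents. Serpina3c encodes the kallikrein-binding protein of rat plasma, Serpina3l and Serpina3n are its close relatives, and Serpina3m is a further copy. In rat liver, growth hormone is known to raise Serpina3c and Serpina3l, and inflammation is known to raise Serpina3n. Upstream sequence is shown for those genes of the group that the sequence table holds, because these close copies share much of it. Among them Serpina3l was lower in the obese pool. The rises, in Serpina3n and Serpina3m, were small. Each line gives the 250 bases before the annotated gene start, from RefSeq on build GRCr8, 5′ to 3′ on the strand of the gene. Capitals mark TTCNNNGAA, the pattern that STAT factors bind, among them the STAT5 proteins that growth hormone activates.
Serpina3l: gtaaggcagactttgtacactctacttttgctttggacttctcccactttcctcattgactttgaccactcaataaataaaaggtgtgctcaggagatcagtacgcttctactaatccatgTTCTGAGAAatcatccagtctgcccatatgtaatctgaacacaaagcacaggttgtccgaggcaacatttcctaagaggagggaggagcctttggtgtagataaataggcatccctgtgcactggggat
Serpina3n: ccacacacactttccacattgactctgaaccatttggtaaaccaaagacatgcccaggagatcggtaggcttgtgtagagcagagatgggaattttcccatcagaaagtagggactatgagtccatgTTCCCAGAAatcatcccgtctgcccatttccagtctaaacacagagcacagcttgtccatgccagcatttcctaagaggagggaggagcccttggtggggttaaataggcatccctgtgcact
Serpina3m: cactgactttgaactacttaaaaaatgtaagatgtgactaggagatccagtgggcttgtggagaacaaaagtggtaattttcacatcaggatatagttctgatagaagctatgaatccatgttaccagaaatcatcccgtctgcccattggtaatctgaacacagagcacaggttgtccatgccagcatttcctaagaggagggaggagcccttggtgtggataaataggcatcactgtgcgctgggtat
These windows lie at chr6:129062956-129063205 on the plus strand (Serpina3l), chr6:129088142-129088391 on the plus strand (Serpina3n) and chr6:128836840-128837089 on the minus strand (Serpina3m).

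The pattern began at position -129 from the gene start of Serpina3l, as TTCTGAGAA, and at position -123 from that of Serpina3n, as TTCCCAGAA. It reads the same on both strands and overlapped no other match. The 250 bases of Serpina3m held no match, which says only that these letters are not in this window. The 27 members with an entry in the table had 28 windows. Of these 28, 2 held the pattern, those of Serpina3l and Serpina3n, a share near the 7.67% of all 33469 windows. Serpina3l was lower and Serpina3n slightly higher in the obese pool, and a part of the pattern in either value was not tested. Aligned end to end, the windows of Serpina3n and Serpina3m were identical at 83.3% of aligned bases, those of Serpina3l and Serpina3m at 71.9%, and those of Serpina3l and Serpina3n at 70.4%. The members with no entry were Serpina3c, Serpina6, Serpina10, Serpinb8 and Serpinb12.

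Serpina3c stood at 12.07 and 12.07 on the obese arrays, against 12.76 and 12.78 on the lean arrays. Both obese arrays lay below both lean arrays, and arrays of the same pool differed far less than the pools did. The difference was -0.70, which is a level lower by a factor of 1.63 in the obese livers (1.61 to 1.64). A lower difference than this was seen for 2.49% of all genes.

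Serpina3l stood at 10.24 and 10.11 in the obese pool, against 10.65 and 10.81 in the lean pool. The groups of arrays did not overlap, and the difference of -0.55, or 1.47-fold lower (1.33 to 1.62), fell just short of the 1.5-fold rule. It passed the rule without the lean original array (replicate 1) and without the obese original array (replicate 1), and then 2 members were 1.5-fold lower. It also passed with cyclic loess or quantile normalisation, and its difference ran from -0.69 to -0.41 over 9 settings.

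Serpina3n, the next gene along the chromosome, stood at 13.14 and 13.16 in the obese pool and at 12.98 and 12.98 in the lean pool. The obese arrays were the higher ones, by 1.13-fold (1.12 to 1.14). Serpina3m stood at 11.60 and 11.50 in the obese pool, against 11.36 and 11.40 in the lean pool. Its arrays did not overlap either, and the fold was 1.13 (1.07 to 1.18). The 4 measured genes of the group thus split into 2 lower and 2 slightly higher in the obese pool. Rises of this size were common. Of all genes, 75.0% had a lower difference than Serpina3n and 74.1% a lower one than Serpina3m. Of the genes that reached the median level of all genes, 63.6% had differences above 0, with a median of 0.0755. With cyclic loess the differences of Serpina3n and Serpina3m were 0.11 and 0.10. The 4 genes are therefore not shown to be regulated in opposite directions. These genes are close copies of each other and of further copies in the genome. How well their probes tell the copies apart was not tested.

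**Figure D2:**
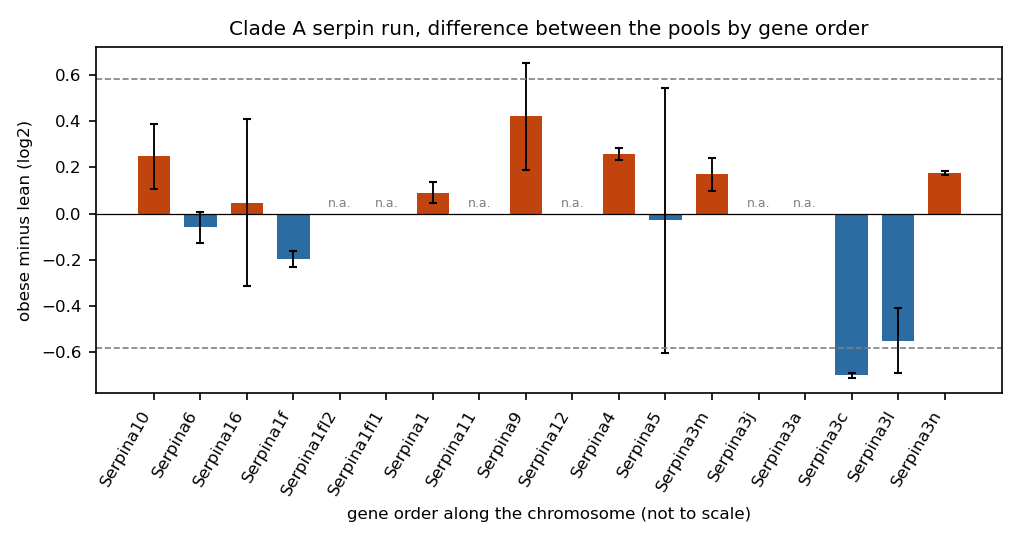
Difference between the pools (y axis, obese minus lean, log2) for the clade A serpins in gene order along their chromosome (x axis, not to scale). Bars are the differences of the 12 members, whiskers the range over the 4 pairs of arrays, dashed lines a factor of 1.5, and n.a. marks genes not analysed here. Serpina3c and Serpina3l, at -0.70 and -0.55, stand next to each other and beside Serpina3n at 0.18.

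All 12 measured clade A members lie in 1 run on chromosome 6 of build GRCr8. The run holds 18 protein-coding genes, all of them serpins, with Serpina10 at one end and Serpina3n at the other. Clade B lies elsewhere, with 9 members on chromosome 13 and 5 on chromosome 17. Within the clade A run, members that reached 5.48 and members that did not were interleaved, with Serpina5 below it between Serpina4 and Serpina3m above it.

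The remaining bright serpins of clade A were close to equal in the pools or slightly higher in the obese pool. Serpina1, alpha-1-antitrypsin, which inhibits the elastase of neutrophils, stood at 13.26 and 13.23 in the obese pool and at 13.12 and 13.19 in the lean pool. The obese arrays were higher, by only 1.06-fold (1.03 to 1.10). Serpina4, whose human counterpart kallistatin inhibits tissue kallikrein, stood at 12.39 and 12.38 in the obese pool and at 12.14 and 12.10 in the lean pool. This was a fold of 1.20 (1.17 to 1.22), with no overlap. Rises of these sizes were not rare, as 61.2% of all genes had a lower difference than Serpina1 and 84.4% a lower one than Serpina4.

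Serpina6, the corticosteroid-binding globulin that carries glucocorticoids in blood and inhibits no protease, stood at 10.82 and 10.78 in the obese pool and at 10.81 and 10.91 in the lean pool. The arrays of the pools overlapped, and the difference was -0.06, from -0.13 to 0.01 over pairs of arrays. Serpina10, which with protein Z inhibits activated clotting factor X, stood at 9.09 and 8.91 in the obese pool and at 8.70 and 8.81 in the lean pool. Its arrays did not overlap, and the fold was 1.19 (1.08 to 1.31). A lower difference than that of Serpina10 was seen for 83.5% of all genes.

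The 4 dim members of clade A stayed below 5.48 in both pools. Serpina5, the protein C inhibitor, which rodents express mainly in the reproductive tract, stood at 3.97 and 3.35 in the obese pool and at 3.95 and 3.43 in the lean pool. Both original arrays were high and both technical replicates low, in either pool. Serpina16 showed the opposite order, at 3.10 and 3.51 in the obese pool and 3.10 and 3.42 in the lean pool, again alike in both pools. Serpina9, in human a gene of germinal centre B cells, had a difference of 0.42 and Serpina1f one of -0.20. These had no overlap between pools, at levels where neither is known to lie above background.

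**Figure D3:**
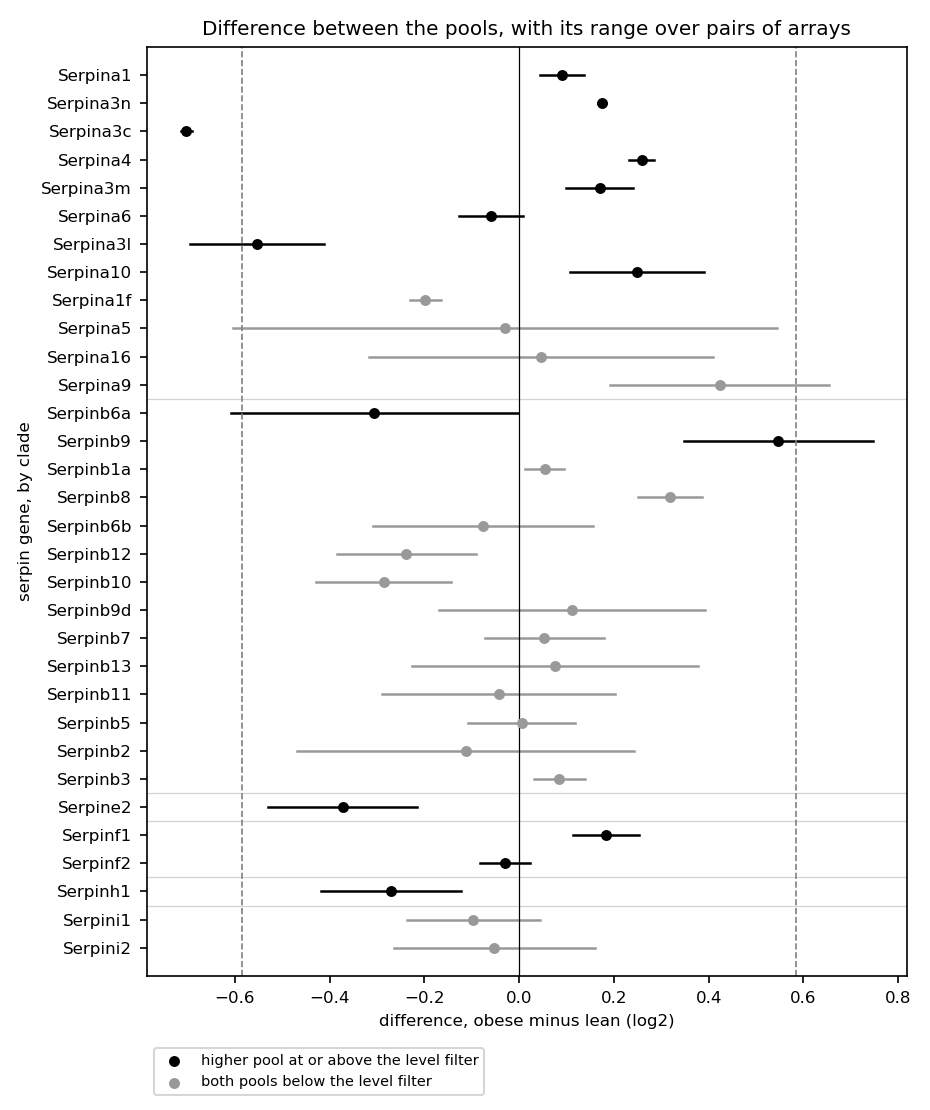
Difference between the pools (x axis, obese minus lean, log2) for each of the 32 serpin genes, by clade. Points are differences of pool means, lines the range over the 4 pairs of arrays, dashed lines a factor of 1.5 in either direction, and grey marks genes below 5.48 in both pools. Serpina3c alone lies outside the dashed lines, with Serpina3l at -0.55 and Serpinb9 at 0.55 just inside.

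Intracellular serpins of clade B were mostly dim, and Serpinb9 showed their largest difference. Of the 14 members 2 reached the median level of all genes. Serpinb9, which in human and mouse inhibits granzyme B and shields cells from it, stood at 6.64 and 6.39 in the obese pool, against 5.90 and 6.05 in the lean pool. The obese arrays were both above the lean arrays, by 1.46-fold (1.27 to 1.68), just short of the 1.5-fold rule. Of all genes, 96.8% had a lower difference.

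Serpinb9 passed the rule without the lean technical replicate array (replicate 2) and without the obese technical replicate array (replicate 2), and then 1 member was 1.5-fold higher. In bulk liver, fewer cells of a type and less RNA per cell cannot be told apart. Macrophages are among the immune cells that express Serpinb9, and the part of cell composition in its value was not tested. All 11 macrophage markers had differences below 0, with a median of -0.25, and 0 passed the 1.5-fold rule. Their summed linear intensity was 2978 to 3377 on the obese arrays and 3694 to 3885 on the lean arrays. Gzmb, the granzyme that Serpinb9 inhibits and a gene chosen after its values were seen, stood at 5.70 and 5.90 in the obese pool and at 6.01 and 6.02 in the lean pool.

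Serpinb6a, which in mouse inhibits cathepsin G, stood at 6.44 and 6.09 in the obese pool and at 6.70 and 6.44 in the lean pool. The pools nearly met at the obese original and the lean technical replicate array, and the difference was -0.31. Serpinb1a, an inhibitor of neutrophil elastase, cathepsin G and proteinase 3, stood at 5.33 and 5.32 in the obese pool and at 5.31 and 5.24 in the lean pool, a fold of 1.04. Serpinb8, which in human inhibits furin, stood at 4.88 and 4.77 in the obese pool and at 4.49 and 4.52 in the lean pool. Its arrays did not overlap and the fold was 1.25 (1.19 to 1.31), but both pools lay below 5.48.

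The other clade B members had mean levels of 3.44 or less. They included Serpinb5 (maspin, known from epithelia), Serpinb2 (an inhibitor of urokinase), Serpinb7 (megsin) and Serpinb13, which in human inhibits cathepsin L. Serpinb6b, Serpinb9d and Serpinb11 had differences of -0.08, 0.11 and -0.04, with overlap between the pools. Serpinb12 at -0.24 and Serpinb3 at 0.085 had none. For the 12 members of the clade below 5.48 the differences ran from -0.29 in Serpinb10, a gene of blood-forming cells, to 0.32 in Serpinb8. The arrays of the pools overlapped for 7 of the 12. Neutrophil markers were dim as well, with 0 of 9 at the median level of all genes and a median difference of 0.02. Their summed intensity was 171 to 173 on the obese arrays and 160 to 164 on the lean arrays.

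The secreted serpins of clade F differed little between the pools. Serpinf1, pigment epithelium-derived factor, a serpin that does not inhibit proteases and acts on vessels and fat cells, stood at 12.08 and 12.02 in the obese pool and at 11.83 and 11.91 in the lean pool. The obese arrays were higher with no overlap, by 1.14-fold (1.08 to 1.19). A lower difference than that of Serpinf1 was seen for 76.0% of all genes. Serpinf2, the main inhibitor of plasmin in blood, stood at 11.74 and 11.65 in the obese pool and at 11.73 and 11.72 in the lean pool. The lean arrays lay between the obese arrays, and the difference was -0.03, from -0.08 to 0.02. The genes of clade F are neighbours on chromosome 10.

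Serpine2 and Serpinh1, which connective tissue cells express strongly, were somewhat lower in the obese pool. Serpine2, protease nexin 1, an inhibitor of thrombin and of plasminogen activators at cell surfaces, stood at 5.85 and 5.54 in the obese pool and at 6.07 and 6.07 in the lean pool. The arrays did not overlap, and the fold was 1.29 lower (1.16 to 1.44). Serpinh1, the collagen chaperone of the endoplasmic reticulum also called heat shock protein 47, stood at 7.24 and 7.02 in the obese pool and at 7.44 and 7.36 in the lean pool. It was 1.21-fold lower (1.09 to 1.34), again without overlap.

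Collagen genes, whose products Serpinh1 helps to fold, were set beside it as its partners. Col1a1, a chain of type I collagen, stood at 6.91 and 6.95 in the obese pool and at 7.98 and 7.82 in the lean pool, and was 1.96-fold lower (1.82 to 2.11). It was the 1 of 16 measured collagen genes and collagen-processing enzymes past the 1.5-fold rule, and the median of the 16 was -0.02. Of 10 markers of stellate cells and fibroblasts, 2 were 1.5-fold lower and 0 higher, with a median of -0.28. Differences lay below 0 for 7 of them and above 0 for 3. Dcn and the dim Lum had differences of -1.90 and -2.11. Those of Lrat, Reln, Pdgfrb, Colec11 and Hand2 were -0.34, -0.03, 0.11, 0.01 and 0.00. Col1a1, Col1a2 and Col3a1 belong to this list and to that of the collagen genes. The summed intensity of the 10 markers was 1255 to 1339 on the obese arrays and 1820 to 1838 on the lean arrays. Their part in the values of Serpine2 and Serpinh1 was not tested.

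Skeletal muscle transcripts were a feature of the lean pool. All 10 muscle markers were 1.5-fold lower in the obese pool, with a median of -6.24. They are among the 352 genes counted as lower, the 2.43% that Serpina3c was set beside. Their summed intensity was 399 to 412 on the obese arrays and 28293 to 29399 on the lean arrays. Hepatocyte markers had a median difference of 0.09, with 0 of 8 past the 1.5-fold rule. The summed intensity of these 8 was 65358 to 65584 on the obese arrays and 59298 to 61969 on the lean arrays. Endothelial markers had a median of -0.12 over 5 genes, with none past the rule, and pancreatic markers one of -0.03 over 7 genes. The part of muscle RNA in the serpin values, and in the share of all genes counted as lower, was not tested.

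Both clade I serpins were dim and alike in the pools. Serpini1, neuroserpin, an inhibitor of tissue plasminogen activator best known from neurons, stood at 3.02 and 3.29 in the obese pool and at 3.26 and 3.24 in the lean pool. The lean arrays lay between the obese arrays. Serpini2, a gene known from pancreas, stood at 2.01 and 2.22 in the obese pool and at 2.07 and 2.28 in the lean pool, and like Serpina16 it was higher on both technical replicates.

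**Figure D4:**
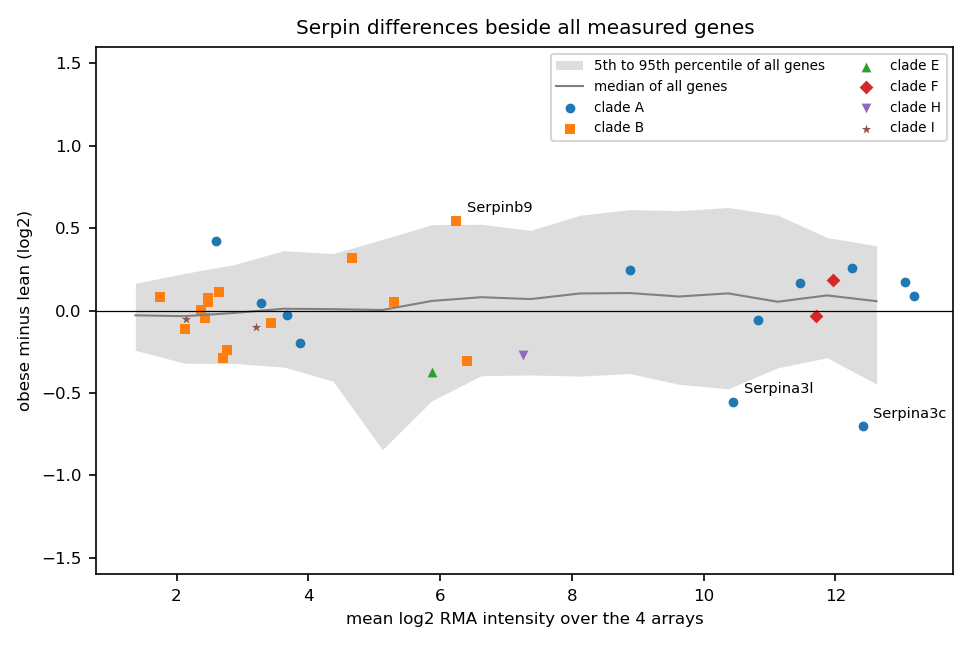
Difference between the pools (y axis, obese minus lean, log2) against the mean log2 intensity over the 4 arrays (x axis) for the 32 serpin genes, by clade. The grey band spans the 5th to the 95th percentile of all genes in bins of level with at least 20 genes, and the grey line is their median. Serpina3c and Serpina3l lie below the band at -0.70 and -0.55, and Serpinb9 at 0.55 and the dim Serpina9 at 0.42 lie above it.

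Enzymes that serpins restrain were set beside them. Of 29 measured target proteases and cofactors, 1 passed the 1.5-fold rule as lower and 0 as higher, and their median difference was -0.03. The lower one was Klkb1, plasma prekallikrein, at 10.16 and 9.97 in the obese pool and at 10.72 and 10.80 in the lean pool. Its arrays did not overlap, and it was 1.62-fold lower (1.48 to 1.77). Vtn, vitronectin, an adhesive protein of plasma made by the liver, stood at 12.97 and 12.98 in the obese pool and at 12.89 and 12.95 in the lean pool.

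Protease inhibitors outside the serpin family had a median difference of 0.00 over 24 measured genes. Among them 1 was 1.5-fold higher and 0 lower in the obese pool. It was A2m, alpha-2-macroglobulin, an acute phase protein of the rat that traps proteases of many classes, at 9.78 and 9.62 in the obese pool and 8.82 and 8.97 in the lean pool.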

How the data were processed

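The authors deposited 1 RMA intensity per probe set and array on a linear scale, from 2.31 to 14288. RMA is named in the submitters' processing notes. Its version, the genome build and the step to a linear scale are not given in the sources used here. Pooling and labelling of 100 ng RNA follow the labels' protocols. The log2 was taken here with no further normalisation. Of 29214 probe sets, 15310 carried 1 symbol, 323 several and 13581 were not listed. Per gene the probe set of highest mean was kept.

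Pool levels are means of 2 arrays, which are technical replicates, and the few arrays limit the precision. No p-values were computed. The size rule was checked on simulated data, with increases only, in genes at or above the median level. No simulated shift was 1.5-fold, so the check does not bear on members close to that limit. The members, gene lists (in part those of an earlier account), size rules and alternatives were chosen with earlier results of these data known. Genes named are members past the 1.5-fold rule, the 8 of highest mean, Serpine2, Serpinf1, Serpinf2, Serpinh1 and Serpini1, up to 3 genes past the rule from each list of target proteases, other inhibitors and collagen partners, and Col1a1 and Vtn. The remaining members are given briefly, and Gzmb was named after its values were seen. An item is not reported here. Promoter windows came from RefSeq (GRCr8) and were matched by gene identifier, and Biopython 1.88 aligned them. limma 3.58.1 ran cyclic loess and quantile normalisation, and Python 3.11.15 with pandas 2.3.3 the rest.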

Additional observations from a re-analysis of the deposited data

How the results depend on the processing

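Serpina3c was 1.5-fold lower in each alternative that kept it, with differences from -0.77 to -0.69. The count of 1.5-fold lower serpins, 1 as reported, was 1 to 2 when an array was left out. It was 2 on the technical replicate arrays alone, 2 with cyclic loess and 2 with quantile normalisation, each time through Serpina3l. Without Serpina3c, an alternative chosen after seeing the data, it was 0. The count of 1.5-fold higher serpins, 0 as reported, was 0 to 1 when an array was left out and 1 on the original arrays alone, through Serpinb9. The median difference of -0.012 was -0.017 to 0.041 when an array was left out and 0.017 on the original arrays alone. Over the members at the median level of all genes it was 0.030, beside 0.0755 over all the genes at that level. The cause of these moves was not tested. No serpin was 2-fold apart in any alternative. An offset of 16 before the log changed no count, and the mean over probe sets could change none because each member has 1. Over 9 settings 19 members kept their sign and 13 did not, among them Serpina6 and Serpinf2, while the others of these lay below that level. No paired test was made, because the arrays repeat 1 pool per phenotype. The differences matched by array label are those on the original and on the technical replicate arrays alone. For Serpina5 these were 0.02 and -0.08, against a range of -0.60 to 0.54 over all pairs of arrays. The 2 arrays per pool limit what can be seen for the 18 dim members.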

Other observations

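A pair of probe sets carried the symbols of adjacent serpins and was assigned to no gene. The probe set listed for Serpina11 and Serpina9 stood at 4.48 and 4.68 in the obese pool and at 4.32 and 4.40 in the lean pool. The probe set listed for Serpina9 and Serpina12, the gene of the adipokine vaspin, stood at 3.71 and 4.14 in the obese pool and at 3.76 and 3.66 in the lean pool. Both lay below the median level of all genes.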
